A study of Mus musculus with 27 samples.

Results

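The adenylate cyclases Adcy1 to Adcy9, the membrane enzymes that make cyclic AMP (cAMP), and Gnas, which encodes the stimulatory G protein subunit Gs alpha, were followed across every library of a mouse thyroid tumor study. These 10 genes were chosen by name from the 33924 gene symbols of the count table, and all 10 have a row. RNA was sequenced in 27 libraries that form 9 groups of 3. Of these, 24 come from 12 thyroid tumor cell lines, each sequenced once in vehicle and once under the RAF and MEK inhibitor CH5126766 (CKI), given at 300 nM for 8 days. The other 3 libraries are marked wildtype and untreated, although their source is still labelled as tumor cell line.

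All 12 tumor lines carry Braf(V600E), the constitutively active kinase allele that drives many thyroid cancers, so no comparison among them isolates Braf. The lines B47275, B48051 and B52482 carry Braf(V600E) alone and are called Braf lines here. Lines BA45198, BA47473 and BA49112 are labelled Braf(V600E) + Arid1a KO, lines AB51189, AB52980 and AB55694 Braf(V600E) + Arid2 KO, and lines BS53736, BS53958 and BS53965 Braf(V600E) + Smarcb1 KO. Arid1a, Arid2 and Smarcb1 code for parts of SWI/SNF, a complex that remodels chromatin. Vehicle was Trappsol, and the labels mention bovine thyrotropin (TSH) in wording that leaves unclear whether both arms received it. If only the CKI arm did, CKI and TSH cannot be told apart in any comparison of CKI with vehicle. The lines were grown from dissected tumors. The sources used here do not give the driver of each allele, the animal behind each line or whether a line is a clone, and p-values measure the spread between these lines.

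In a thyroid follicular cell, TSH binds its receptor Tshr, the receptor activates Gs alpha, and Gs alpha stimulates adenylate cyclase. The cAMP made activates protein kinase A (PKA) and the exchange factors Epac, and phosphodiesterases break it down. Through PKA, the transcription factor CREB and its relatives switch on genes, and in the thyroid this axis drives growth, iodide uptake and hormone synthesis. The 9 membrane cyclases all respond to Gs alpha but differ in their other inputs. Adcy5 and Adcy6 are inhibited by calcium, Adcy1, Adcy3 and Adcy8 are classed as stimulated by calcium and calmodulin, Adcy2, Adcy4 and Adcy7 are enhanced by G protein beta-gamma subunits, and Adcy9 is the most divergent member.

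Total counts ranged from 18417255 to 27257703 per library, apart from the Smarcb1 KO CKI libraries of BS53958 (11684983) and BS53965 (2884130). Smarcb1 RNA fell from 74.9 ± 9.06 CPM (counts scaled to library size) in Braf vehicle to 0.461 ± 0.612 in Smarcb1 KO vehicle (SD, n = 3 lines each). Arid1a RNA fell from 132 ± 3.86 to 80.6 ± 13.9 CPM in Arid1a KO vehicle. Arid2 RNA was at 97.6 ± 10.2 in Braf vehicle and 94.0 ± 14.3 CPM in the lines labelled Arid2 KO, so transcript level does not check that label. The thyroid identity gene Pax8 stood at 3.44 CPM or above in every tumor line library and Nkx2-1 at 12.2 or above. These are 2 of 7 follicular markers, of which 5 were lower in Braf vehicle than in wildtype (edgeR adjusted p under 0.05). Summed over the 7, Braf vehicle held 92.75 to 253.3 CPM and wildtype 229400 to 348100. In Smarcb1 KO vehicle 2 of the 7 were at 0. The wildtype libraries also held every tested marker of endothelium (447.9 to 666.7 CPM summed over 5 genes), leukocytes (112.4 to 175.7), fibroblasts (1219 to 2671), adipocytes (912.2 to 2764) and skeletal muscle (1117 to 2506).

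Adcy6 dominated the family. Library sizes behind all CPM were TMM-scaled, a correction for library composition, and levels of different genes are compared only as CPM per kilobase (kb) of exon. On that scale Adcy6 ranked first in all 9 groups, with 25.0 CPM/kb in wildtype, 14.8 in Braf vehicle and 10.3 in Smarcb1 KO vehicle. It held between 48.6% and 92.2% of the summed cyclase level in single tumor line libraries, with a median of 75.15%. Adcy9 ranked next in 8 groups but behind Adcy8 in Arid1a KO vehicle, where Adcy8 held 22.6% of the summed level against 11.6% for Adcy9. The sum over the 9 cyclases was 45.2 ± 3.17 CPM/kb in wildtype and 20.3 ± 1.93 in Braf vehicle (SD, n = 3). It was 22.0 ± 4.55 in Arid1a KO, 15.5 ± 1.71 in Arid2 KO and 11.7 ± 3.46 in Smarcb1 KO vehicle. Under CKI the sum was above that of the same line in vehicle in 11 of 12 lines, by 1.11 to 1.98 times. Line BA49112, with the highest Adcy8 in vehicle, was the exception at 0.871 times.

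**Figure D1:**
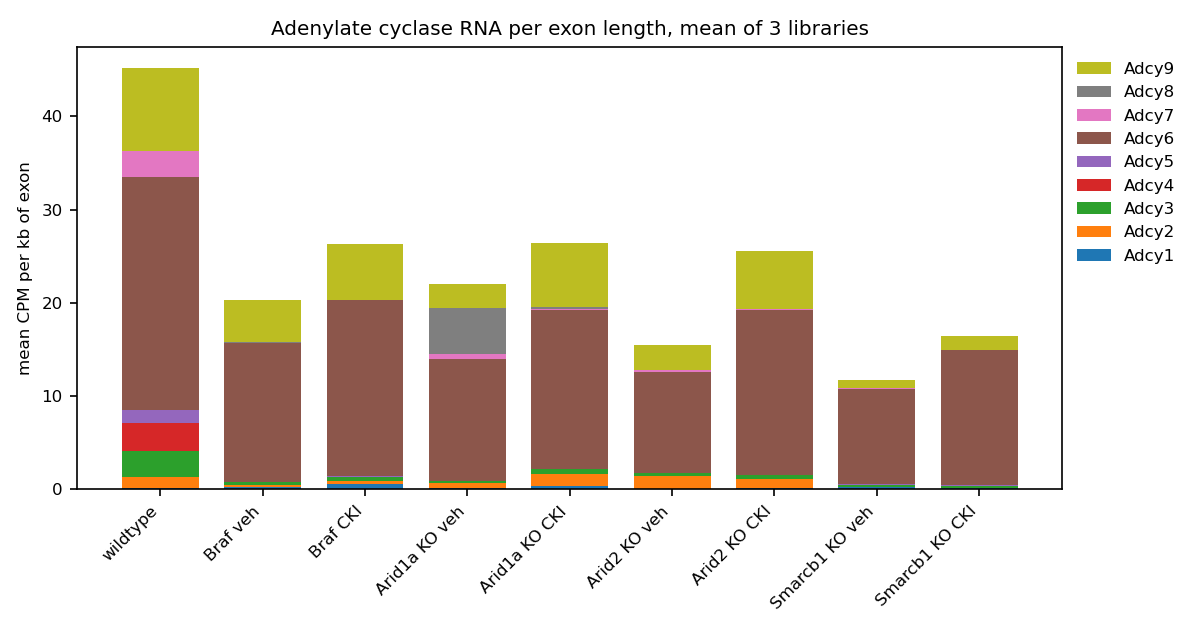
Stacked bars give the mean level of each of the 9 adenylate cyclases in CPM per kb of exon (vertical axis) in the 9 groups of 3 libraries (horizontal axis; veh is vehicle). Adcy6 is the largest block in every bar, the wildtype bar reaches 45.2, and Adcy8 forms a visible block in Arid1a KO vehicle alone.

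Changes are log2 ± standard error (SE), and a change was called at an edgeR adjusted p under 0.05 over all genes tested. Between Braf vehicle and wildtype, Adcy3, Adcy4, Adcy5, Adcy6 and Adcy7 were lower, 5 of 10 members, beside 22.8% of all genes called lower and 46.5% called either way. Between Braf CKI and wildtype 5 of 10 members were called, beside 41% of all genes. In vehicle, 1 of 9 tested members (Adcy8) was called in Arid1a KO against Braf, where 3.63% of all genes were. None was called in Arid2 KO, where 0.0512% of all genes were, and Adcy9 alone in Smarcb1 KO, where 18.1% were. CKI against vehicle called Adcy7 and Adcy8 in Arid1a KO (13.9% of all genes) and no member in Braf (0%), Arid2 KO (0.141%) or Smarcb1 KO (0.032%). Averaged over the 4 genotypes, CKI changed Adcy6, Adcy7 and Adcy9, 3 of 9 members, beside 27.2% of all genes. Adcy4, with at most 4 counts in any tumor line library, was tested only against wildtype. Under CKI, Arid1a KO and Arid2 KO against Braf called no member (0.736% and 0.064% of all genes), and Smarcb1 KO against Braf called Adcy9 (23.1%). With each line compared with itself, as a block, all-gene shares were 32.3% for CKI in Arid1a KO, 6.27% in Arid2 KO and 42.9% for the mean, and members called were 5, 1 (Adcy6) and 3 (Adcy1, Adcy6 and Adcy9). Without the shallow CKI libraries of BS53958 and BS53965 the mean CKI change called 2 members, Adcy6 and Adcy9. That fit is itself 1 of the alternatives over which the share of all genes called ran from 13.2% to 42.9%. Its own share is not given here, so its 2 members cannot be judged against it. Where edgeR called no member in these comparisons, members at an unadjusted edgeR p under 0.05 were counted out of 9, beside all genes at that threshold. They numbered 1 (Adcy1) for Arid2 KO in vehicle (12.4% of all genes), 2 for CKI in Arid2 KO (13.6%) and 1 (Adcy8) for Arid1a KO under CKI (14.6%). They numbered 0 for CKI in Braf (11.2%), CKI in Smarcb1 KO (8.53%) and Arid2 KO under CKI (10.5%). DESeq2 called none of the members counted except Adcy8. None of these shares was tested against the background, and the comparisons with Braf vehicle share those libraries.

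**Figure D2:**
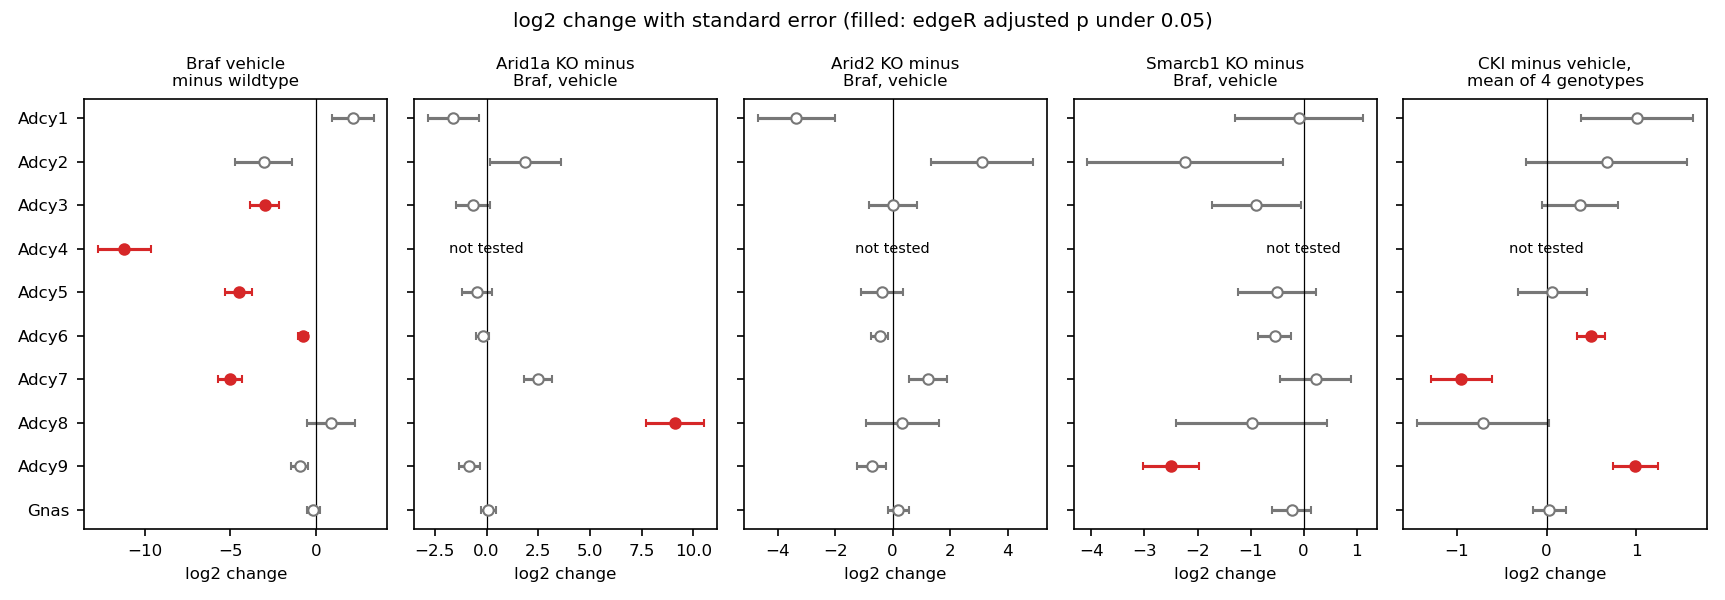
Points give the log2 change of each member (vertical axis) with its SE as a bar, in 5 comparisons with separate horizontal scales; filled points passed an edgeR adjusted p under 0.05 and open points did not. Adcy9 is filled and below 0 in Smarcb1 KO against Braf and filled and above 0 in CKI against vehicle.

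Gnas, the G protein that couples the receptor to the cyclases, was called in none of the 16 comparisons. It stood at 6.50 to 22.0 CPM in all 27 libraries. In wildtype it measured 9.79, 15.4 and 16.8 CPM, and in Braf vehicle 11.8, 12.1 and 14.1 CPM. The 8 neighbouring pairs of groups, ordered by mean, all overlapped. They did so for Tshr too, whose group means ran from 0.126 to 121 CPM, so such overlap does not show an even level. The Braf vehicle minus wildtype difference was -0.15 ± 0.37 log2 (edgeR adjusted p = 0.768), and the mean CKI difference was 0.03 ± 0.19 log2 (edgeR adjusted p = 0.939), with Gnas higher under CKI in 5 of 12 lines and lower in 7. Its level was 1.25 CPM/kb in wildtype, beside 74.8 for the inhibitory subunit Gnai2 and 86.2 for the beta subunit Gnb1. In the GENCODE M21 annotation of GRCm38, which is not the build of the counts, antisense genes cover part of the Gnas exons (Nespas 8.83%, Gm20721 13.1%). How reads over such overlaps were counted is not given in the sources used here, so the Gnas level is uncertain.

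Adcy6, the calcium-inhibited cyclase that led every group, was lower in the tumor lines and rose under CKI. In wildtype it measured 159, 174 and 176 CPM, and in Braf vehicle 82.1 (B47275), 114 (B48051) and 106 CPM (B52482). All 3 wildtype libraries lay above all 3 Braf vehicle libraries, and the difference of -0.75 ± 0.30 log2, or 1.69-fold, passed narrowly (edgeR adjusted p = 0.0434). In Braf CKI the libraries measured 89.4, 172 and 123 CPM, which overlaps wildtype, and that difference of -0.41 ± 0.30 did not pass (edgeR adjusted p = 0.285). The vehicle level was 81.8 to 94.6 CPM in Arid1a KO, 47.7 to 87.2 in Arid2 KO and 49.7 to 93.8 in Smarcb1 KO, and no knockout differed from Braf past the threshold. Ordered by mean, all 8 neighbouring pairs of the 9 groups overlapped, which does not show that the groups were alike.

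Under CKI, Adcy6 was above vehicle in 12 of 12 lines; 3.91% of all genes were. Among the Arid2 KO lines it went from 84.8 to 140 CPM in AB51189, from 47.7 to 81.9 in AB52980 and from 87.2 to 138 in AB55694. In the Smarcb1 KO lines it went from 65.0 to 97.4, from 49.7 to 64.3 and from 93.8 to 133 CPM (BS53736, BS53958, BS53965). The Arid1a KO lines moved from 81.8 to 105, from 94.6 to 139 and from 89.4 to 103 CPM (BA45198, BA47473, BA49112). The ratio of CKI to vehicle ran from 1.09 in B47275 to 1.72 in AB52980, so the rise was small in each line and shared by all. The mean change was 0.49 ± 0.15 log2 (edgeR adjusted p = 0.0251), and with the line as a block, which compares each line with itself, 0.48 ± 0.06 (adjusted p = 0.000218). Without AB51189, B48051, B52482, BA45198, BA47473 or BS53736 in turn, the unblocked adjusted p rose to between 0.0524 and 0.0654.

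The call of Adcy6 against wildtype was narrow, though its size moved little. Without B47275, B52482 or any 1 of the 3 wildtype libraries the Braf vehicle minus wildtype difference of Adcy6 lay between -0.85 and -0.62 with an edgeR adjusted p from 0.0511 to 0.132. In these bulk libraries fewer cells of a type and less RNA per cell cannot be told apart. The marker sums of other cell types above (endothelium at 0.412 to 3.15 CPM and leukocytes at 3.04 to 4.74 in Braf vehicle) moved with every comparison with wildtype, and their part in it was not tested.

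Adcy5, the close relative of Adcy6, was a wildtype transcript. It measured 7.20, 8.81 and 14.9 CPM in wildtype and 0.507, 0.515 and 0.310 in Braf vehicle, with no overlap. The difference was -4.52 ± 0.76 log2, a 22.9-fold lower level (edgeR adjusted p = 0.000112). It remained at or under 1.19 CPM in all 24 tumor line libraries, and no comparison among them called it.

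**Figure D3:**
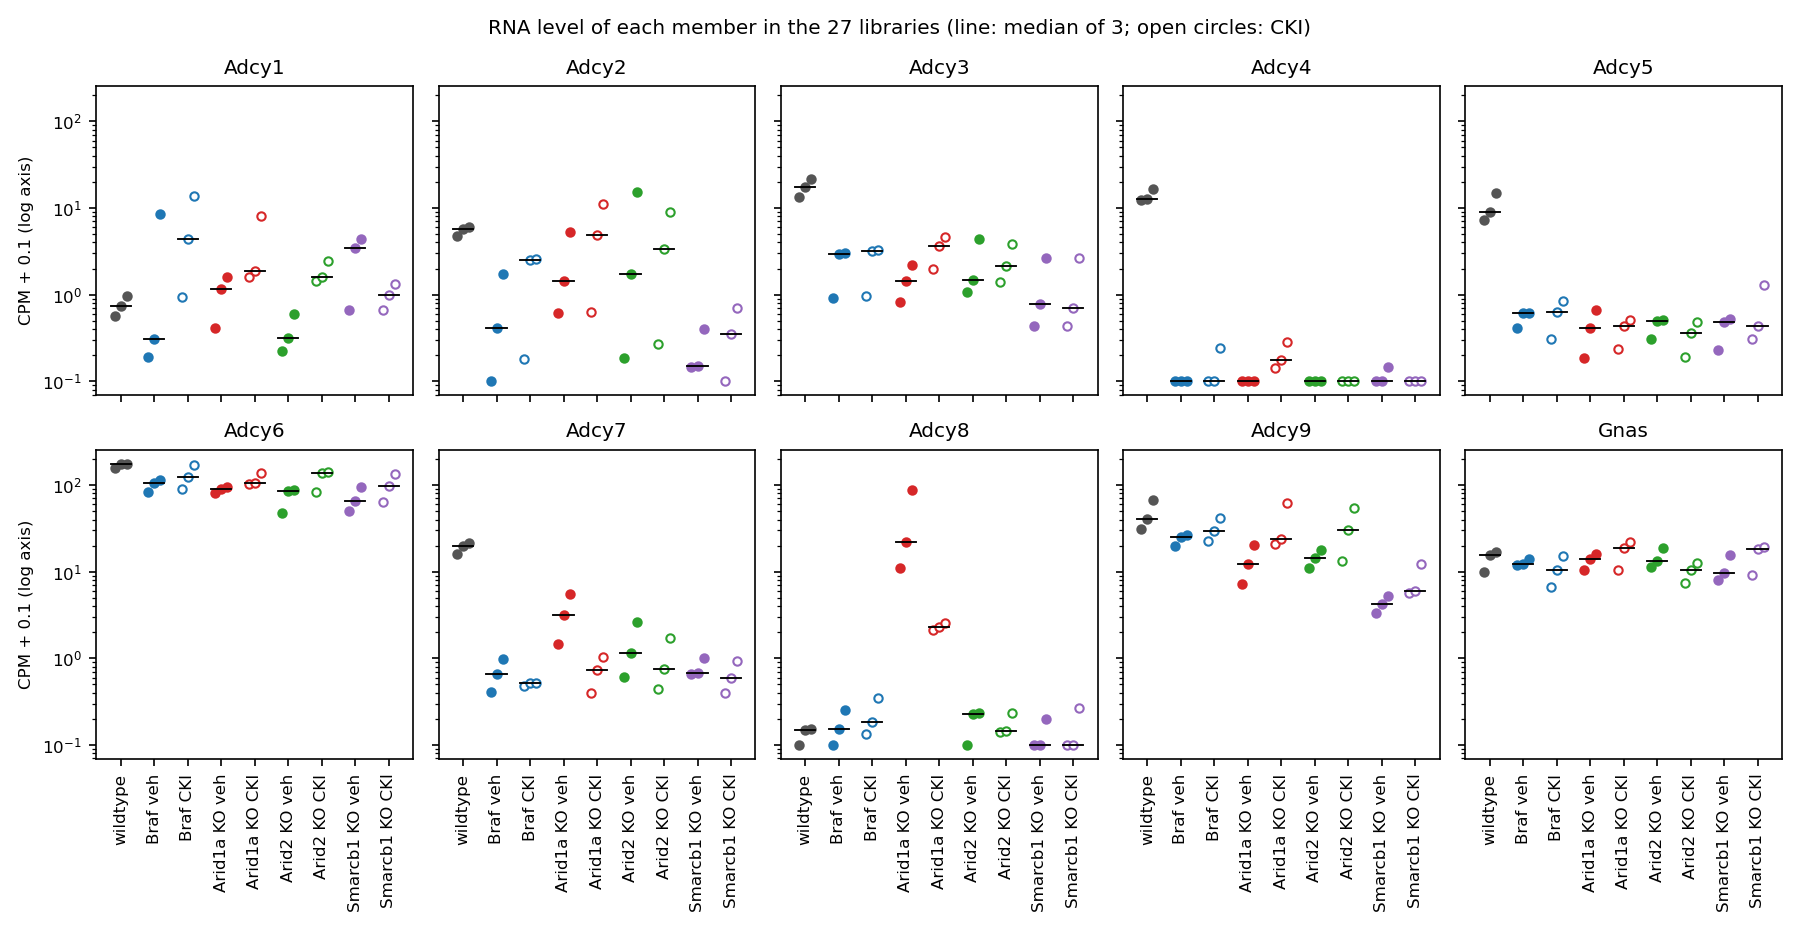
Each panel gives 1 member, each point 1 of the 27 libraries, and the vertical axis CPM + 0.1 on a log scale, so that a count of 0 sits at 0.1. Points are sorted within each of the 9 groups of 3, filled for wildtype and vehicle and open for CKI, and the bar is the median; Adcy8 stands above 2 CPM in the 6 Arid1a KO libraries alone.

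Adcy9, the divergent cyclase and the second most abundant, was low in Smarcb1 KO lines and rose under CKI. In Braf vehicle it measured 26.3 (B47275), 19.5 (B48051) and 25.3 CPM (B52482). In Smarcb1 KO vehicle it measured 3.28 (BS53736), 4.17 (BS53958) and 5.12 CPM (BS53965). The highest Smarcb1 KO line lay well under the lowest Braf line, and the change was -2.50 ± 0.52 log2, or 5.68-fold lower (edgeR adjusted p = 0.00458). That call held in 12 of 12 alternatives, with adjusted p up to 0.026. Arid1a KO vehicle lines measured 20.5, 12.02 and 7.17 CPM and Arid2 KO vehicle lines 14.2, 11.01 and 17.5, between the other groups by mean, and neither differed from Braf past the threshold (-0.84 ± 0.50 and -0.73 ± 0.50 log2, edgeR adjusted p = 0.381 and 0.617).

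Under CKI the Smarcb1 KO lines again had the lowest Adcy9, at 12.2, 5.52 and 5.94 CPM against 29.3, 22.3 and 41.1 in Braf. That difference was -1.97 ± 0.52 log2 (edgeR adjusted p = 0.0132). The adjusted p was 0.0621 without BS53958, 0.0554 without BS53965 and 0.293 without the shallow CKI libraries of both, where the change was -1.40. In vehicle, where depth was even, epithelial markers summed to 0.215 to 322 CPM in Smarcb1 KO and 1564 to 6918 in Braf, endothelial markers to 0.243 to 665.8 and 0.412 to 3.15, and neuronal and glial markers to 51.8 to 158 and 3.40 to 44.9. No epithelial or neuronal marker was at 0 in either group and 1 endothelial marker was at 0 in Smarcb1 KO, and their part in the Adcy9 difference was not tested.

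Adcy9 was higher under CKI than in vehicle in 12 of 12 lines. The ratios of CKI to vehicle were 1.11, 1.14 and 1.63 in the Braf lines and 2.99, 1.72 and 3.32 in the Arid1a KO lines. They were 3.78, 1.19 and 1.75 in the Arid2 KO lines and 3.73, 1.32 and 1.16 in the Smarcb1 KO lines. AB51189, with the largest ratio, went from 14.2 to 53.7 CPM, and BA45198 reached the highest tumor line level, from 20.5 to 61.2 CPM, within the wildtype range of 31.0 to 66.5. The mean change was 0.98 ± 0.25 log2 (edgeR adjusted p = 0.00836), and 0.90 ± 0.18 with the line as a block (adjusted p = 0.00325). The call held in 20 of 20 alternatives, and without the shallow CKI libraries the change was 1.11 (adjusted p = 0.00774). Within a single genotype edgeR called no Adcy9 change without the block. The nearest was Arid1a KO at 1.43 ± 0.50 (edgeR adjusted p = 0.0652), which passed with the block at 1.38 ± 0.36 (adjusted p = 0.016) and with DESeq2 (adjusted p = 0.0292). Other markers moved with CKI as well. Fibroblast markers summed to 4.33 to 95.9 CPM in Braf vehicle and 21.4 to 1866 in Braf CKI, and to 5.15 to 10.4 in Arid2 KO vehicle and 194 to 459 in Arid2 KO CKI. In Arid1a KO they summed to 588 to 2193 in vehicle and 827 to 1984 under CKI, and in Smarcb1 KO to 3.56 to 665.9 and 7.09 to 105.5. None of 5 was at 0 in any of these groups. Thyroid follicular markers summed to 33.0 to 376 CPM over the vehicle groups and 38.9 to 982 over the CKI groups, and the part of either in the Adcy6 and Adcy9 changes was not tested. Against wildtype, Braf vehicle was at -0.96 ± 0.49 log2 and did not pass (edgeR adjusted p = 0.118), although it did with only those groups in the fit (-0.99, adjusted p = 0.0415).

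**Figure D4:**
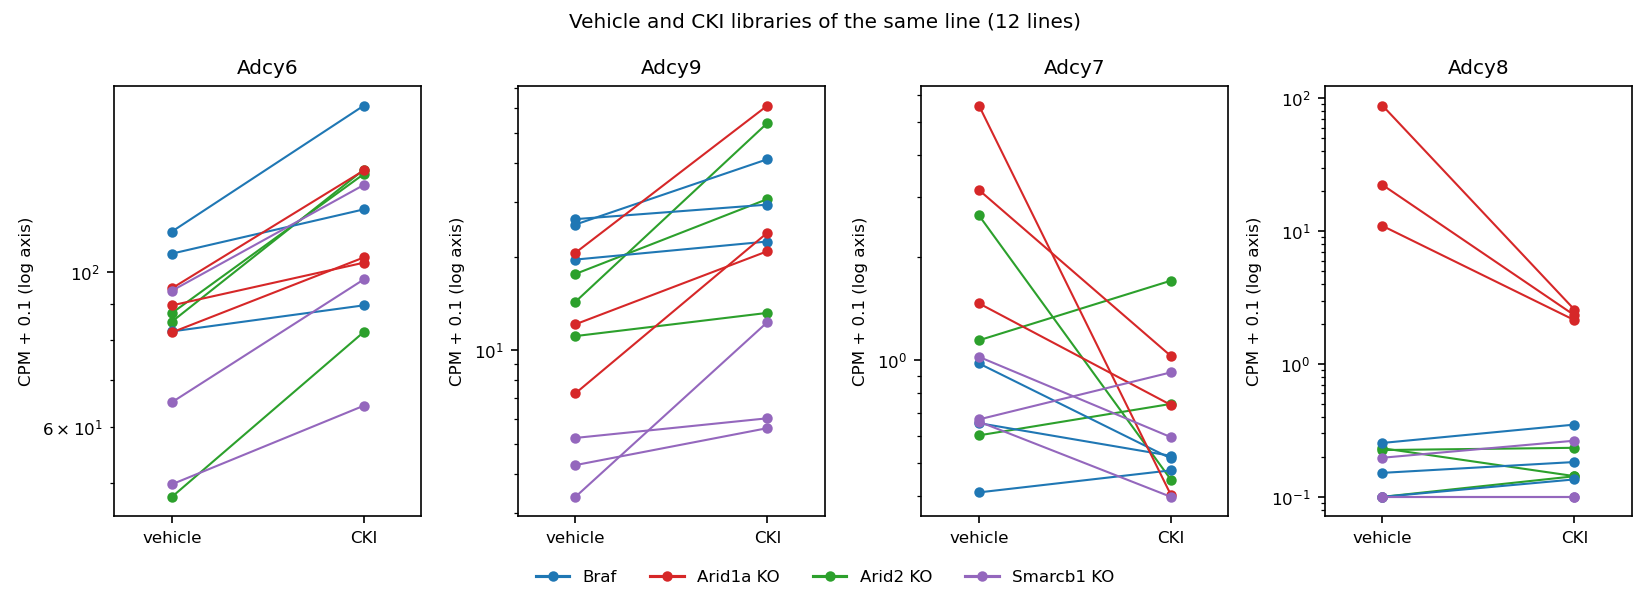
Each segment joins the vehicle and CKI library of 1 of the 12 lines, coloured by genotype, for 4 cyclases; the vertical axes are CPM + 0.1 on log scales that differ between panels. All segments rise for Adcy6 and Adcy9, and the 3 Arid1a KO segments fall for Adcy7 and Adcy8.

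RefSeq promoter windows, each of 300 bases lying mostly before a start site, were matched for 8 of the 10 members (14 windows, GRCm38.p6); Adcy6 and Adcy8 have none. The windows of Adcy9 and Adcy7 are shown because their mean CKI changes were called in opposite directions. The Adcy7 call did not pass with the line as a block (edgeR adjusted p = 0.0923), and Adcy7 was lower in 8 of 12 lines. Each was searched on both strands for the CREB motif TGACGTCA, the shorter TGACG (contained in it), the AP-1 motif TGANTCA and the ETS motif CCGGAAG. The full CREB motif was in no member's window and in 1.79% of 32851 mouse windows. TGACG was in 20.8% of them, TGANTCA in 7.81% and CCGGAAG in 8.86%. Matches are in capitals and are descriptions of letters only.
Adcy9, minus strand of chr16:4420449-4420748: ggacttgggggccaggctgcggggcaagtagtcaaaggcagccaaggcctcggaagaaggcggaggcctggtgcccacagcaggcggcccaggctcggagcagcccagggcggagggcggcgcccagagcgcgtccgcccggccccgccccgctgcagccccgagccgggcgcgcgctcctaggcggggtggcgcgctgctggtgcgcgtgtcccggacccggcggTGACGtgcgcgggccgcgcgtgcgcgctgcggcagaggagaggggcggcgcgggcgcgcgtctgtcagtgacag
Adcy7 first start, plus strand of chr8:88282742-88283041: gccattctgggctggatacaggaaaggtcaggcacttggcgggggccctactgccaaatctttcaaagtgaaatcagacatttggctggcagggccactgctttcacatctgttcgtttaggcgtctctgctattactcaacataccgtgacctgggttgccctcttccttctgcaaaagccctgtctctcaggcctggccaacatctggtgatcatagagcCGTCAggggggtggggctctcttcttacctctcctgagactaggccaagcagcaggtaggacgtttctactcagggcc
Adcy7 second start, plus strand of chr8:88288816-88289115: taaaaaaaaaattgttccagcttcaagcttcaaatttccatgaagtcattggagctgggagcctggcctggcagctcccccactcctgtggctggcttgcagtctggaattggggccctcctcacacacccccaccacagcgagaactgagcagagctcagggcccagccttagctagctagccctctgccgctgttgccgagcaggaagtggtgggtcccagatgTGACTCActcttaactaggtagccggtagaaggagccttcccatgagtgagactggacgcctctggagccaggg
The Adcy9 window, with 78.3% G and C beside a median of 52.7% over all windows, holds 1 TGACG. The first Adcy7 window holds 1 TGACG, read on the opposite strand, the second holds 1 TGANTCA, and the remaining start at chr8:88293954-88294253 holds no match.

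Adcy8, a cyclase stimulated by calcium and best known from neurons, was all but absent outside the Arid1a KO lines. In Arid1a KO vehicle it measured 22.2 (BA45198), 10.9 (BA47473) and 88.1 CPM (BA49112), from 430, 242 and 2065 counts. In wildtype and in every Braf, Arid2 KO and Smarcb1 KO library it stood at or under 0.250 CPM, with at most 6 counts. Arid1a KO exceeded Braf in vehicle by 9.12 ± 1.38 log2 (edgeR adjusted p = 0.00327), a fitted size that leans on 4 counts over the 3 Braf libraries. The group means were 40.4 and 0.0687 CPM. The call held in 11 of 12 alternatives and had an adjusted p of 0.0619 where the fit held these 6 libraries alone.

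Under CKI Adcy8 was lower in all 3 Arid1a KO lines, at nearly the same level in each, 2.23, 2.04 and 2.47 CPM. The change was -4.16 ± 1.06 log2 (edgeR adjusted p = 0.0169), and -3.60 ± 0.57 with the line as a block (adjusted p = 0.00271). The lowest Arid1a KO CKI library still stood above all 18 tumor line libraries of the other genotypes, and Arid1a KO against Braf under CKI was 4.17 ± 1.12 log2 without passing (edgeR adjusted p = 0.0847). The CKI response of Arid1a KO minus that of Braf was -4.96 ± 1.61 log2 and did not pass (edgeR adjusted p = 0.698), where 0% of all genes did. With the line as a block it was -4.45 ± 1.17 (edgeR adjusted p = 0.183), where 0.147% of all genes passed. The response was thus not shown to differ between them. Braf held 4 Adcy8 counts in vehicle and 9 under CKI over its libraries, too few to show a fall. Leaving out BA45198, BA47473 or BA49112 put the CKI change in Arid1a KO between -4.54 and -2.94, with an adjusted p up to 0.249.

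Fibroblast markers summed to 588 to 2193 CPM in Arid1a KO vehicle and 4.33 to 95.9 in Braf vehicle, with none of 5 at 0 in either group. Epithelial markers summed to 320 to 405 CPM in Arid1a KO vehicle, 14.0 to 28.4 in Arid1a KO CKI and 1564 to 6918 in Braf vehicle. Neuronal and glial markers, the tissue in which Adcy8 is best known, lay at 12.7 to 22.3 CPM in Arid1a KO vehicle, inside the Braf vehicle range of 3.40 to 44.9. Under CKI they lay lower, at 3.66 to 8.55 CPM in Arid1a KO with no overlap with vehicle and none of 5 at 0, and 1 of 5 was called lower by edgeR (median -1.47 log2). The part of the fibroblast, epithelial and neuronal shifts in the Adcy8 and Adcy7 differences was not tested.

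Adcy1 and Adcy3, the other calcium-stimulated cyclases, behaved differently from Adcy8. Adcy3 measured 13.3, 17.4 and 21.5 CPM in wildtype and 2.81, 2.94 and 0.825 in Braf vehicle, a change of -2.98 ± 0.84 log2 with no overlap (edgeR adjusted p = 0.00726). It ran from 0.329 to 4.47 CPM in the tumor lines, and no unblocked comparison among them called it. In Arid1a KO it went from 2.12 to 3.59, from 0.718 to 1.85 and from 1.32 to 4.47 CPM under CKI, which passed only with the line as a block (1.302 ± 0.291, edgeR adjusted p = 0.00788). Antisense Cenpo, which is in the table, covers 22.1% of the Adcy3 exon bases in GENCODE M21, so reads of the 2 genes may be mixed.

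Adcy1 varied widely between the Braf lines. In the Arid2 KO lines it ran from 0.125 to 0.501 CPM in vehicle and from 1.34 to 2.32 under CKI. These ranges do not overlap, but the change did not pass (edgeR adjusted p = 0.404, and 0.103 with the line as a block). Line B48051 held 8.50 CPM in vehicle and 13.7 under CKI, whereas the other Braf lines held 0.0922 and 0.206 CPM in vehicle. Under CKI Adcy1 was higher in 10 of 12 lines and lower in BS53958 and BS53965, the lines with the shallow CKI libraries (3.40 to 1.24 and 4.35 to 0.891 CPM). The mean CKI change of 1.01 ± 0.62 log2 did not pass (edgeR adjusted p = 0.241), while with the line as a block it was 1.38 ± 0.46 and passed (adjusted p = 0.0327). The blocked call was lost without those 2 lines (1.68, adjusted p = 0.0625). Adcy1 was the 1 member called higher against wildtype, in Braf CKI (3.25 ± 1.26 log2, edgeR adjusted p = 0.0451), where wildtype measured 0.466, 0.853 and 0.645 CPM. That difference was 1.94 without B48051 (adjusted p = 0.0928) and did not pass without any 1 of the 3 wildtype libraries either (adjusted p 0.137, 0.0983 and 0.116).

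Adcy7, a cyclase enhanced by beta-gamma subunits and common in blood cells, was high in wildtype and, among the lines, highest in Arid1a KO vehicle. It measured 16.0, 19.8 and 21.4 CPM in wildtype and 0.553, 0.309 and 0.877 in Braf vehicle, a 32.6-fold lower level (-5.03 ± 0.72 log2, edgeR adjusted p = 2.2e-05). Arid1a KO vehicle lines measured 5.47, 3.05 and 1.37 CPM, all above the Braf vehicle lines. This difference of 2.50 ± 0.69 log2 just missed the threshold (edgeR adjusted p = 0.0518) and passed without B52482 and in 3 other fits.

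Under CKI Adcy7 fell in the Arid1a KO lines to 0.302, 0.927 and 0.638 CPM. The change was -2.38 ± 0.68 log2 (edgeR adjusted p = 0.0293), and -2.24 ± 0.75 with the line as a block (adjusted p = 0.0421). It was lost without BA45198 (-1.49, adjusted p = 0.274), BA47473 (0.0955) or BA49112 (0.0999). Over the 4 genotypes the mean change was -0.95 ± 0.34 (edgeR adjusted p = 0.0441), with Adcy7 lower under CKI in 8 of 12 lines. That call did not pass with the line as a block (-0.87 ± 0.39, adjusted p = 0.0923). Without AB51189, B47275, B52482, BA45198, BA47473, BA49112, BS53736, BS53958 or BS53965 in turn, its adjusted p lay between 0.0505 and 0.163.

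Adcy4, known from endothelium, measured 12.2, 12.5 and 16.5 CPM in wildtype and had 0 counts in all Braf vehicle, Arid1a KO vehicle and Arid2 KO libraries. Set against a floor of 3 counts over the group, which covers counting error only, it was at least 277-fold lower in Braf vehicle than in wildtype (edgeR adjusted p = 0.000252). The endothelial markers above moved the same way. Adcy2, also enhanced by beta-gamma subunits, measured 4.62 to 6.02 CPM in wildtype and ranged from 0 (B52482 vehicle) to 15.1 CPM (AB52980 vehicle) in the tumor lines. Skeletal muscle markers summed to 123 CPM in AB52980 in vehicle and 1573 under CKI, and their part in its Adcy2 level was not tested. Adcy2 was higher under CKI in 10 of 12 lines, and no comparison called it (mean CKI change 0.67 ± 0.90 log2, edgeR adjusted p = 0.625).

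Tshr, the receptor that feeds these enzymes, fell in the tumor lines and rose under CKI. It measured 89.0 to 169 CPM in wildtype and 0.103 to 0.464 in Braf vehicle, a change of -8.80 ± 2.08 log2 (edgeR adjusted p = 0.00203). Under CKI it rose by 4.61 ± 0.99 log2 on the mean of the 4 genotypes (edgeR adjusted p = 0.00298; with the line as a block 4.06, adjusted p = 0.0031), but unevenly over lines. It went from 1.70 to 175 CPM in BA45198, from 0.464 to 51.2 in B52482, from 0.0440 to 35.7 in AB51189, from 0.384 to 28.6 in BA49112, from 1.46 to 16.3 in AB55694 and from 0.179 to 13.7 in BA47473. The other 6 lines stayed at or under 0.742 CPM under CKI, the 3 Smarcb1 KO lines among them.

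Adcy9 and Adcy6 are set beside Tshr line by line, with no test. In the 6 lines just named the CKI to vehicle ratio of Adcy9 was 2.99, 1.63, 3.78, 3.32, 1.75 and 1.72 in that order. In the other 6 lines it was 1.11 in B47275, 1.14 in B48051, 1.19 in AB52980, 1.32 in BS53958, 1.16 in BS53965 and 3.73 in BS53736. All but BS53736 of the latter had a smaller Adcy9 ratio than any of the former. The ratios of BS53958 and BS53965 rest on shallow CKI libraries with 67 and 20 Adcy9 counts. The Smarcb1 KO lines all fall among the latter, so the split is not independent of genotype. The Adcy6 ratio ran from 1.15 to 1.65 in the former and from 1.09 to 1.72 in the latter, which overlap. The lines were split by the Tshr level under CKI in these same data, not by the size of the Tshr change. Among the former the Tshr ratio was 11.2 in AB55694 and 810 in AB51189, the second from 1 count in vehicle. Among the latter it reached 6.90 in BS53965, but from 1 count in each arm and a shallow CKI library, so that ratio shows no rise. No relation between the changes was computed.

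The rest of the pathway was followed in 5 lists of receptors and other G alpha subunits, Gs and cyclase regulators, PKA, Epac and anchors, phosphodiesterases, and CREB factors with cAMP-induced genes. Between Braf vehicle and wildtype 9 of 70 tested genes were higher and 17 lower, beside 23.7% and 22.8% of all genes, with a median of -0.32 log2 beside 0.02 over all genes. By list, 2 of 12 receptors and G alpha subunits were higher and 1 lower, 1 and 6 of 15 regulators, 1 and 2 of 15 PKA genes, 1 and 6 of 15 phosphodiesterases and 4 and 2 of 13 CREB genes. The smallest adjusted p-values belonged to Rapgef4, an Epac, which fell from 10.1 to 0.0823 CPM (-6.84 ± 1.03 log2, edgeR adjusted p = 5.23e-05), and Pde8a, a high-affinity cAMP phosphodiesterase, from 39.3 to 0.763 CPM (-5.68 ± 0.92, adjusted p = 7.97e-05). Adcyap1r1, a Gs-coupled receptor, fell from 12.7 to 0.0516 CPM and Pde1a, a calmodulin-activated phosphodiesterase, from 32.8 to 0.459. Between Braf CKI and wildtype 12 genes were higher and 15 lower of 70, beside 21.2% and 19.8% of all genes. The first by adjusted p were Rapgef4 (10.1 CPM in wildtype and 0.0256 in Braf CKI), Pde7a, a cAMP-specific phosphodiesterase (24.1 and 164), Adcyap1r1 (12.7 and 0.0257) and Adcy10, the soluble adenylate cyclase (0.972 and 0.0672). Pde7a was thus higher and the other 3 lower.

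Over the mean of the 4 genotypes 19 of 66 tested list genes rose and 6 fell, beside 13.6% of all genes called higher and 13.6% lower, with a median of 0.25 log2 beside 0.03 over all genes. Nr4a3, a nuclear receptor gene induced by cAMP, went from 1.18 to 162 CPM in Arid1a KO and from 1.10 to 38.1 in Braf (group means), a mean change of 5.43 ± 0.66 log2 with 12 of 12 lines higher (edgeR adjusted p = 7.06e-05). Per1, the clock gene that CREB induces, rose by 2.27 ± 0.29 in 12 of 12 lines (edgeR adjusted p = 9.16e-05). Pde4d, a cAMP-specific phosphodiesterase, rose by 3.37 ± 0.53 in 11 of 12 lines (edgeR adjusted p = 0.000392). Gnaq, the G alpha subunit that couples receptors to phospholipase C, rose by 0.72 ± 0.12 in 12 of 12 lines (edgeR adjusted p = 0.000501).

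By list, 6 of 15 phosphodiesterases rose and none fell under CKI, the other risers being Pde3a, Pde4b, Pde4c, Pde7a and Pde8a. Of 13 CREB genes 6 rose (also Nr4a1, Nr4a2, Crem and Sik1) and 2 fell (Atf1 and Creb1, both CREB family factors). Of 14 PKA genes 4 rose, among them Pkia, a PKA inhibitor, and Akap12, a PKA anchor, and 2 fell, the regulatory subunit Prkar2b (-1.17 ± 0.22 log2, lower in 12 of 12 lines) and the inhibitor Pkig. Ric8b, the chaperone of Gs alpha, rose by 0.30 ± 0.09, and Gng5 and Cap1 fell, of 13 regulators. These names beyond the first 4 were chosen after their values were seen. With the line as a block Pde4c did not pass (adjusted p = 0.0552).

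**Figure D5:**
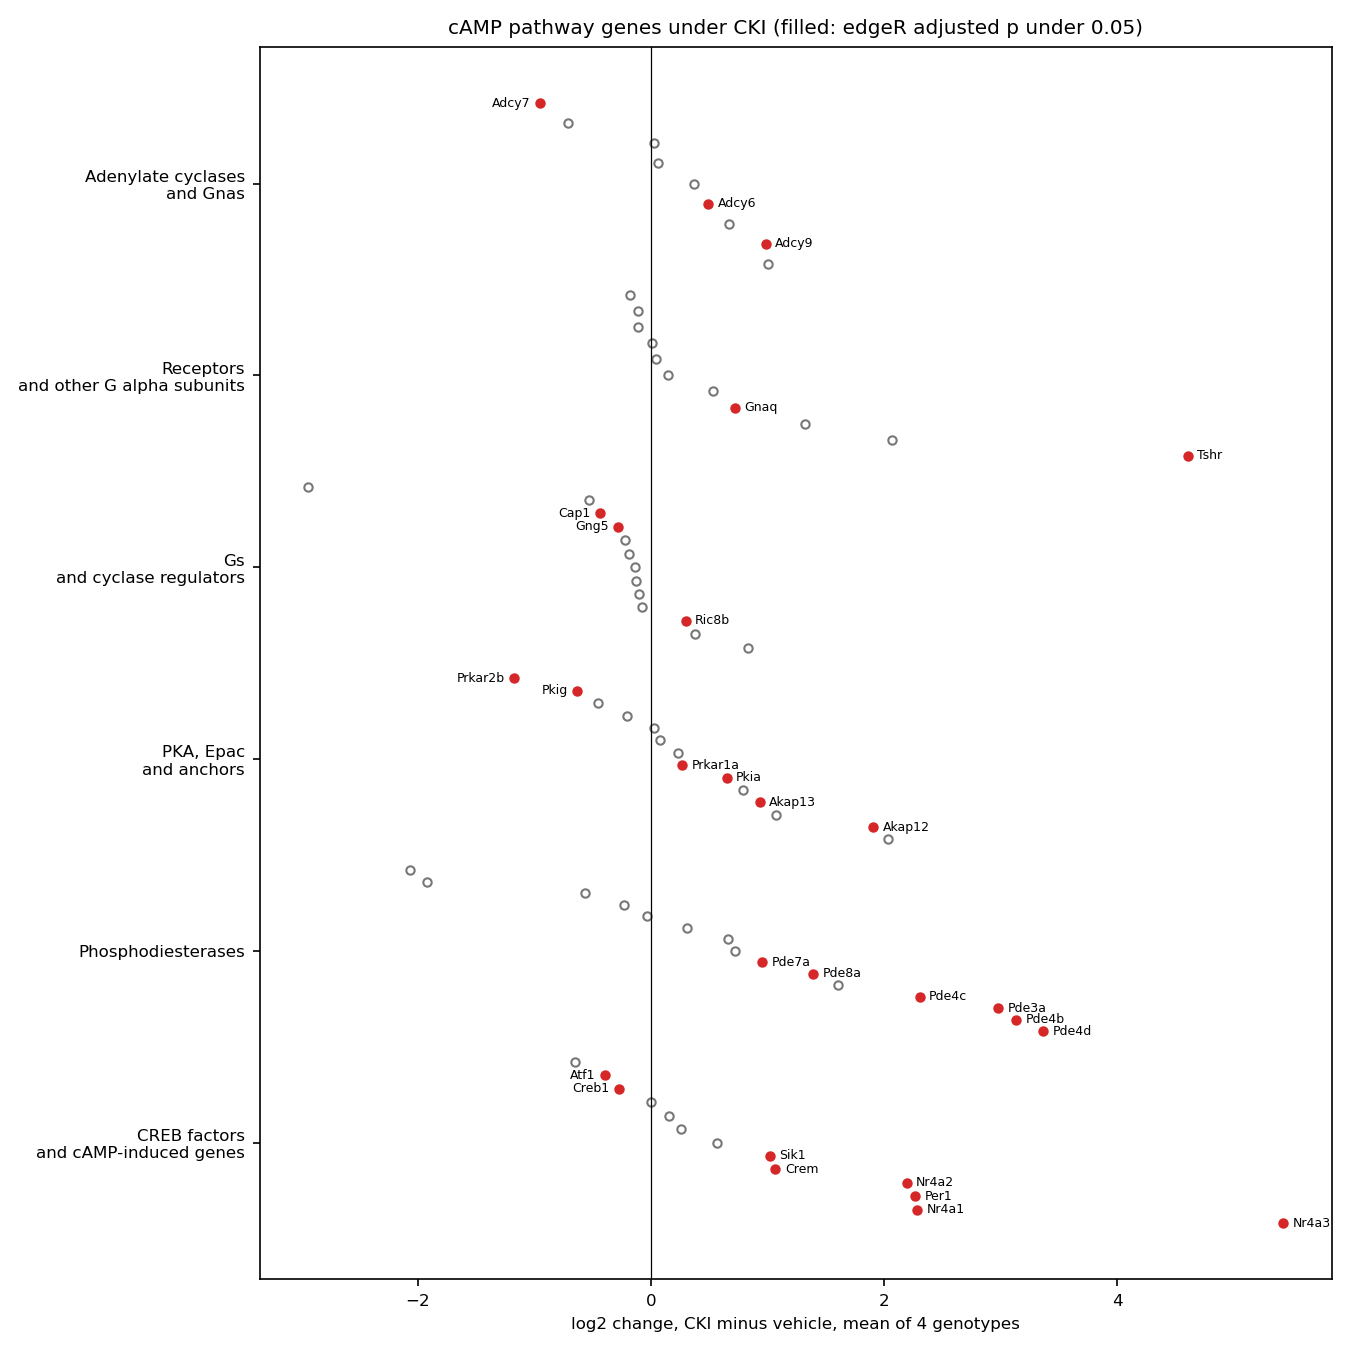
Each point is 1 tested gene of the members or of the 5 pathway lists (rows), at its log2 change between CKI and vehicle, averaged over the 4 genotypes (horizontal axis); filled and named points passed an edgeR adjusted p under 0.05. Tshr, Nr4a3 and the phosphodiesterases Pde3a, Pde4b and Pde4d lie to the right of every cyclase.

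In the Arid1a KO lines 14 of 66 list genes rose under CKI and 1 fell, beside 7.08% and 6.84% of all genes, led by Pde4b (5.22 ± 0.98 log2, edgeR adjusted p = 0.00373), Nr4a3, Per1 and Pde7a. No list gene was called for CKI in Braf, Arid2 KO or Smarcb1 KO by edgeR. At an unadjusted edgeR p under 0.05 there were 15, 17 and 6 of 66, beside 11.2%, 13.6% and 8.53% of all genes. In vehicle, Smarcb1 KO had 3 of 66 list genes higher and 6 lower than Braf, beside 6.93% and 11.2% of all genes. Rapgef3, the other Epac beside Rapgef4, stood at 0.901 CPM in Smarcb1 KO and 68.2 in Braf (-6.24 ± 0.75 log2, edgeR adjusted p = 9.43e-05), and Pde4b at 0.0305 and 9.14 CPM (-7.97 ± 1.31, adjusted p = 0.0009). Pkig stood at 14.7 and 35.4 CPM, and Pde2a, a phosphodiesterase stimulated by cGMP, at 0.240 and 119. Under CKI 1 was higher and 11 lower, beside 10.1% and 13.1% of all genes, with Pde4b at 0.0410 CPM in Smarcb1 KO and 57.4 in Braf, Rapgef3 at 2.06 and 59.0, Pde7a at 26.9 and 164, and Gna12, a G alpha subunit, at 74.6 and 124.9. Arid1a KO and Arid2 KO had no list gene called against Braf by edgeR in either arm. At an unadjusted edgeR p under 0.05 there were 12 and 8 of 66 in vehicle, beside 19.5% and 12.4% of all genes. Under CKI there were 7 and 6, beside 14.6% and 10.5%.

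Genes whose level followed a member most closely over the 12 lines (vehicle and CKI averaged; Pearson r of log2 CPM, a description with no test) were sought among about as many candidates for each member, 11285 or 11286. For Adcy9 they were Higd2a (r = 0.982), Rnf24 (0.966) and Tmem167b (0.953). For Adcy8 they were Itih2 (0.958), Slit3 (0.949) and Rgl1 (0.944), in a gene above 0.250 CPM in the 3 Arid1a KO lines alone. For Adcy6 they were Tmem87b (0.929), Fam164a (0.893) and Sox4 (0.857). The first gene was Pspc1 for Adcy7 (0.903), D5Ertd579e for Adcy3 (0.895), Sele for Gnas (0.89), Brpf1 for Adcy1 (0.888) and Capza1 for Adcy2 (0.845). Neither Adcy6 nor Adcy9 was among the 3 nearest genes of the other.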

How the data were processed

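RNA-seq counts per gene were deposited as raw counts in 1 table, with 1 column per library. The submitters' processing notes name the build mm9, STAR 2.4, HTSeq 0.6.1 and DESeq2. The sources used here do not give the role of each, the gene annotation or the strand setting. Every library was mapped to its group by its labels.

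The counts were tested with edgeR 4.0.16 (R 4.3.3): TMM scaling, filterByExpr by group, the quasi-likelihood F-test and Benjamini-Hochberg adjustment over all genes tested. The tumor line comparisons used 1 fit of 24 libraries (15634 genes) and those with wildtype 1 fit of 27 libraries (16821 genes). The SE is the log2 change divided by the square root of F, an approximation. Log2 CPM of single libraries used a prior count of 2. Exon lengths came from GENCODE M21 (GRCm38), lengths only. The tests were checked on simulated counts. DESeq2 1.42.0 was an alternative.

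Each line gave both a vehicle and a CKI library, so the line pairs them. Deviations from the group means correlated at 0.259 to 0.773 within the 12 lines. No replicates agreed within sampling noise (lowest chi-square per degree of freedom 28.58).

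The members and gene lists were chosen with earlier results of these data known. The text names each member in full and, of the pathway lists, the 4 genes with the smallest adjusted p among those called in a comparison. Tshr is named in any case, and Gnai2 and Gnb1 beside Gnas. For the mean CKI change further list genes are named, chosen after their values were seen. The genes most like a member are the 3 with the highest r.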

Additional observations from a re-analysis of the deposited data

How the results depend on the processing

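Over 18 gene results and 227 alternatives, 184 kept direction and call, 43 kept direction but lost the call and 0 reversed. The number of members called moved as follows. In Arid1a KO against Braf in vehicle it was 1, but 2 (with Adcy7) with a filter of at least 1 CPM, DESeq2 or all 27 libraries in the fit, 0 with only the compared groups, and 1 to 2 leaving out single lines. In Smarcb1 KO against Braf it was 1 in vehicle (1 to 2 without single lines, 2 without B48051). Under CKI it was 1, but 0 with only the compared groups, 0 without the CKI libraries of BS53958 and BS53965, and 0 to 1 without single lines. In Arid1a KO against Braf under CKI it was 0, but 1 (Adcy8) with DESeq2. For CKI in Arid1a KO it was 2, but 1 with no filter, 3 (with Adcy9) with DESeq2, 5 with the replicate block by line, and 0 without any 1 of the 3 lines. For CKI in Arid2 KO it was 0, but 1 (Adcy6) with the block. For the mean CKI change it was 3, and 1 to 3 without single lines (1, Adcy9, without AB51189, B52482, BA45198, BA47473 or BS53736). Against wildtype it was 5, and 4 to 5 without single libraries. With no filter it was 4 in both comparisons, and with only the compared groups 6 (with Adcy9) for Braf vehicle.

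The share of all genes called ranged over the alternatives from 0.181% to 9.31% for Arid1a KO in vehicle, 5.92% to 22.7% for Smarcb1 KO in vehicle, 3.57% to 27.8% for Smarcb1 KO under CKI, 1.23% to 32.3% for CKI in Arid1a KO, 0% to 6.27% for CKI in Arid2 KO, 0% to 2.48% for CKI in Braf and 13.2% to 42.9% for the mean CKI change. With the replicate block it was 32.3%, 6.27%, 2.48% and 42.9% for those 4 CKI comparisons. Scaling by relative log expression (RLE) moved the median of all genes between Braf vehicle and wildtype from 0.02 to -0.15 log2 and Adcy6 to -0.92. The block without lines BS53958 and BS53965 was added after seeing the data. The 3 lines per group and the 2884130 counts of the BS53965 CKI library limit what can be detected.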
